A study of Mus musculus with 12 samples.

Results

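The genes of the respiratory chain and ATP synthase were examined in bulk RNA-Seq of W-20 cells, a murine bone marrow stromal cell (BMSC) line. Members were the rows of the count matrix whose symbol is that of a protein-coding gene and begins with Nduf followed by a, b, c, s or v, with Uqcr, with Cox4 to Cox8 or with Atp5, the 4 genes Sdha to Sdhd, and the mitochondrially encoded mt-Nd, mt-Co, mt-Cytb and mt-Atp genes. They numbered 111 of 56980 genes, 98 nuclear and 13 mitochondrial. By complex the nuclear members were 38 of complex I, 8 assembly factors of complex I (Ndufaf1 to Ndufaf8, which the pattern admits although they are not subunits), 4 of complex II, 8 of complex III, 21 of complex IV and 19 of complex V.

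There were 12 libraries, 3 per group, from a WT and a Y428F line that had received 50 nM parathyroid hormone (PTH) or PBS as vehicle for 2 hours. The name Y428F stands for a YAP protein in which a tyrosine that the kinase Src can phosphorylate is a phenylalanine, expressed in stable W-20 cells from a Flag-tagged YAP plasmid after selection of puromycin-resistant clones. The titles name the Y428F libraries, whereas their genotype field reads WT. The study describes the sequenced cells as carrying S381A together with Y428F in one place and names Y428F alone in another, and the labels give Y428F only, so the YAP of these cells may hold both changes. No library used here is from W-20 cells given a wild-type YAP plasmid, nor from cells with S381A alone, so the mutations, the added YAP and the clone cannot be told apart in any difference between the lines. The labels do not say that the 3 libraries of a group came from separate cultures, so p-values measure the spread between libraries, which may be technical.

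Respiratory complexes I to IV pass electrons from NADH and succinate to oxygen, complexes I, III and IV pump protons across the inner mitochondrial membrane, and complex V, the ATP synthase, uses the proton gradient to make ATP. Most subunits are encoded in the nucleus and imported, whereas a small core set is encoded by the circular mitochondrial genome, which is transcribed as long polycistronic RNAs that are cut into mRNAs, tRNAs and rRNAs. Nuclear respiratory factors such as NRF1 and the ETS-family factor GABP, with coactivators of the PGC-1 family, are known regulators of the nuclear genes.

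Sequences of 2 kinds are given. The first are promoters, of which the 250 bases before the start site were read from RefSeq (GRCm38.p6) for 74 of the 91 nuclear members tested, 79 promoters in all. The letters GCGCA and GCGC with 1 base between them, as bound by NRF1, were found on either strand in 19.0% of the promoters of members and in 3.74% of all 32851 promoters of that length. For the ETS letters CCGGAAG the shares were 17.7% and 6.91%, and for TATAAA they were 8.86% and 12.4%. The members are genes expressed here, whereas the 32851 promoters were not limited to expressed genes, so these shares do not compare like sets. A match describes the letters only, and no link to the expression values was tested. The promoters that follow are those of Ndufaf4, the nuclear member called with PTH, of Atp5mc2, which was higher in Y428F cells, and of Atp5f1b, the member with the smallest adjusted p between the lines. Capitals mark the NRF1 letters, 113 bases before the start of Ndufaf4 and 42 bases before that of Atp5mc2, and Atp5f1b has none in its window. Promoters were read for 8 of the nuclear members with the smallest adjusted p, 9 windows in all, of which these 2 held the NRF1 letters and none the ETS letters.
Ndufaf4, chr4:24897833-24898082, plus strand: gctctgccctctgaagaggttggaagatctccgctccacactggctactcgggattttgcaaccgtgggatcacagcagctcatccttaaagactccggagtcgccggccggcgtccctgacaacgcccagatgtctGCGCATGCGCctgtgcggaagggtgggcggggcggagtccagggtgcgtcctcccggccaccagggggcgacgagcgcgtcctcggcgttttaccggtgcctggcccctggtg
Atp5mc2, chr15:102671048-102671297, minus strand: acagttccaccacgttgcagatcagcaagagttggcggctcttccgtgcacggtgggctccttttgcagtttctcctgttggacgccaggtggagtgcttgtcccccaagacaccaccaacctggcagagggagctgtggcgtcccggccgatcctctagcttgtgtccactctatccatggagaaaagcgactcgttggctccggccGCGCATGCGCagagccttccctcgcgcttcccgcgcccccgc
Atp5f1b, chr10:128083057-128083306, plus strand: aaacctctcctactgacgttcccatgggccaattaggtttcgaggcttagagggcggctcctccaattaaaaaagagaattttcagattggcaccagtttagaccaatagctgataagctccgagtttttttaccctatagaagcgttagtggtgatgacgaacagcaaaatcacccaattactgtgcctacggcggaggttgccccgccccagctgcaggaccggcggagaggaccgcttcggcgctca

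The second are mitochondrial genes that have a copy in the nuclear genome. In GRCm39 a stretch of chromosome 1 holds annotated pseudogenes of mt-Nd4l (Gm10222, chr1:24651488-24651781), mt-Nd3 (Gm28438, chr1:24651856-24652200), mt-Co3 (Gm28437, chr1:24652270-24653052), mt-Atp6 (Atp6-ps, chr1:24653055-24653732) and mt-Co2 (Gm28661, chr1:24653966-24654646). The annotated sequences of 4 of them are identical to the mitochondrial gene over their whole length, and Gm28438 differs from mt-Nd3 (chrM:9459-9806) at 1 base, T3C, with positions counted from 1 at the start of mt-Nd3 and the base of mt-Nd3 first. The first 30 bases of both are shown with that base in capitals, since a read that does not cover it fits either place.
mt-Nd3: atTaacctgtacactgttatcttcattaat
Gm28438: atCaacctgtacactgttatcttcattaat

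Total counts per library ranged from 17127897 to 19057319. The cells expressed 11 of 13 stromal marker genes, with Col1a2 as the most abundant, whereas Thy1 was at 0. The summed stromal markers were lower in the Y428F libraries, 18941 against 26727 CPM (library-scaled counts, with edgeR's TMM factors) with vehicle and 17366 against 27327 CPM with PTH. Of other cell types, the adipocyte genes Adipoq, Cfd and Ucp1 and the muscle factors Myod1 and Myog were at 0. The summed adipocyte list, with Lpl as its most abundant gene, was at 813 and 792 CPM in WT cells with vehicle and PTH and at 670 and 688 CPM in Y428F cells, and the summed macrophage list, with Ptprc as its most abundant gene, at 2.17 and 1.97 CPM against 6.60 and 7.65 CPM. The summed muscle list, led by Des, was at 4.61 and 4.53 CPM against 8.66 and 7.85 CPM. Single markers went both ways. At an adjusted p under 0.05 with vehicle, 2 of 11 stromal markers were higher and 8 lower in Y428F cells. Of 7 adipocyte markers 2 were higher and 3 lower, where 45.1% of all genes tested were called. In bulk RNA, fewer cells of a type and less RNA per cell cannot be told apart, and the part of these marker differences in the results below was not tested.

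Expression of the members ranged widely. Of the 98 nuclear members, 91 had a total of at least 10 counts over the 12 libraries and 88 reached a mean of 2 CPM, with a median of 70.2 CPM and a range from 3.86 to 979 CPM. The 7 members that could not be tested were Cox4i2, Cox6b2, Cox8b, Cox8c, Ndufb11b, Cox5b-ps and a second row of Atp5po, and 5 of all 111 members had no count in any library. Levels between genes were compared as CPM per kilobase of the canonical transcript. The highest level of any member was that of mt-Co1, the catalytic core of complex IV, at 2010 CPM per kilobase. Among nuclear members the highest levels were those of Cox4i1 in complex IV (553 CPM per kilobase), Atp5f1b in complex V (508), Uqcr10 in complex III (156), Ndufa2 in complex I (151) and Sdhd in complex II (65.0). Among members that reached a mean of 2 CPM the lowest in each were Cox6a2 (5.68), Atp5mj (9.95), Uqcr11 (19.3), Ndufs4 (6.73) and Sdhb (19.1). The complex I assembly factors had their lowest level in Ndufaf1 and their highest in Ndufaf2 (14.8), with a median of 5.33 against 48.9 CPM per kilobase for the subunits of complex I.

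Where a subunit has several isoforms, W-20 cells expressed the widely expressed form. Cox4i2, Cox6b2 and Cox8c, known from hypoxic tissue or testis, were at 0 in all libraries, and Cox8b had at most 1 count. Cox7a1, a heart and muscle isoform, had 0 to 5 counts per library and Ndufa4l2, a hypoxia-induced gene, had 2 to 5. Cox6a2, the heart and muscle form of COX6A, was detected at 46 to 109 counts per library, and held 1.74% of the COX6A level per kilobase in WT and 0.875% in Y428F vehicle libraries. The genes Atp5mc1, Atp5mc2 and Atp5mc3, which encode the same mature subunit c of the ATP synthase rotor, held 25.7%, 39.7% and 34.6% of their summed level per kilobase.

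PTH left nearly all members below the threshold in WT cells. Ndufaf4, an assembly factor of complex I (GRCm39 chr4:24898079-24905001), was the only nuclear member of 90 called at an adjusted p under 0.05, whereas 11.8% of all genes tested were called, 6.88% higher and 4.91% lower. At a stricter limit (adjusted p under 0.01, log2 value beyond 0.3) no nuclear or mitochondrial member was called against 5.27% of all genes. Its values with vehicle were 14.2, 14.2 and 10.7 CPM, and with PTH 18.2, 16.7 and 20.3 CPM. The groups did not overlap, and the log2 fold change was 0.51 ± 0.12 (SE, adjusted p = 0.0165). Without the third vehicle library, the first PTH library or the third PTH library it was not called, with adjusted p up to 0.0766 and a log2 fold change of 0.39 to 0.59 over all alternatives. The median log2 fold change of the nuclear members was 0.007, against -0.015 for all genes tested, and its sign changed with library totals (-0.050) and without the second vehicle (-0.033) or the third PTH library (-0.057). Besides Ndufaf4, 2 more nuclear members had an unadjusted p under 0.05, and both were assembly factors with lower values, Ndufaf3 (log2 fold change -0.42, adjusted p = 0.087) and Ndufaf7 (-0.21, adjusted p = 0.137). These 2 were named after their values were seen. Of the 15583 genes tested, 3932 had an unadjusted p under 0.05. None of the 37 complex I subunits, 4 complex II, 8 complex III, 15 complex IV or 18 complex V genes was called or had an unadjusted p under 0.05.

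None of the 13 mitochondrial members was called with PTH in WT cells by edgeR with the filter on low counts or by DESeq2. At an unadjusted p under 0.05 there were 3, against 3932 of the 15583 genes tested. Up to 3 were called under other settings, namely 3 with no filter, 2 with the length correction, 1 with the replicate block, 3 without the first vehicle library and 1 without the third vehicle or the first PTH library. Their median log2 fold change was 0.083, and -0.002 without the third PTH library. The lowest adjusted p was that of mt-Atp6, a proton channel subunit of the ATP synthase, at 104, 75.2 and 57.0 CPM with vehicle and 86.4, 105 and 155 CPM with PTH (log2 fold change 0.56 ± 0.21, adjusted p = 0.0993). The 2 groups overlapped, and most of the summed counts of this gene and its chromosome 1 copy were at the copy. With the reads of the copy added the log2 fold change was 0.11 ± 0.07 (adjusted p = 0.349).

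In Y428F cells none of the 91 nuclear members was called with PTH in the main edgeR fit of all 12 libraries. Of all genes tested 12.4% were called, 6.61% higher and 5.78% lower. At the stricter limit no member was called against 5.32% of all genes. At an unadjusted p under 0.05 there were 4, against 4315 of the 17691 genes tested. Each of 4 alternatives called 1 member higher: DESeq2, and edgeR with the length correction, with this and the replicate block, and in the fit of the 6 Y428F libraries. The nuclear median was 0.066 (-0.006 without the first PTH library) and 72 of 91 members had a positive log2 fold change, against a median of -0.007 and 8597 positive of 17691 for all genes tested. Of the cytosolic ribosomal protein genes 74 of 76 were positive (median 0.057), and of the mitochondrial ones 53 of 78 (median 0.039). Of the mitochondrial members only mt-Co3, a core subunit of complex IV, was called, while 6 were called with no filter on low counts (1 higher, 5 lower), 2 in the fit of the 6 Y428F libraries and 2 with the reads of the copies added. The values of mt-Co3 were 433, 683 and 353 CPM with vehicle and 224, 168 and 438 CPM with PTH, and the groups overlapped (log2 fold change -0.82 ± 0.27, adjusted p = 0.0495). DESeq2 did not call it, nor did fits scaled without the mitochondrial genes or without the first or second library of Y428F cells with vehicle, the first or second with PTH, the third of WT cells with vehicle or the first with PTH, with adjusted p up to 0.325 over the alternatives. Its log2 fold change was -0.51 without the second vehicle library, -0.56 without the second PTH library and -1.32 without the third PTH library of Y428F cells, and -0.35 with the reads of the copy added. The median of the 13 mitochondrial members was -0.17, and it was -0.038 without the second Y428F library with vehicle.

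No difference between the lines in the response to PTH passed the test in a member. No nuclear or mitochondrial member was called by edgeR with the filter on low counts or by DESeq2, against 0.413% of all genes tested in edgeR. With no filter 3 mitochondrial members were called. With it, 0 nuclear and 2 mitochondrial members had an unadjusted p under 0.05, against 1247 of the 17691 genes tested. All 13 mitochondrial members had a lower log2 fold change in Y428F than in WT cells, with a median difference of -0.23. The largest was that of mt-Co3, -1.02 ± 0.38 (adjusted p = 0.514). With the reads of its nuclear copy added it was -0.45, and those of mt-Atp8 (-0.52) and mt-Atp6 (-0.47) were then larger. Without the first WT library with vehicle, the nuclear median with PTH in WT cells was 0.089 and the median difference between the lines went from 0.049 to -0.026 (-0.012 without the first Y428F library with PTH).

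**Figure D1:**
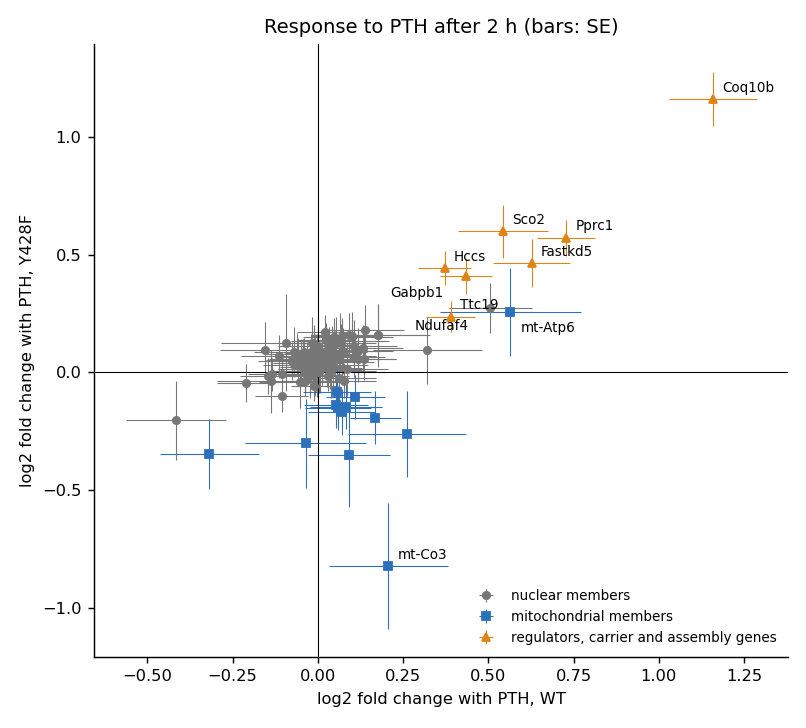
Log2 fold change with PTH in WT cells (x axis) and in Y428F cells (y axis) for nuclear members (grey circles) and mitochondrial members (blue squares) that reached a mean of 2 CPM, and for 7 related genes named in the text (orange triangles); bars are SE. The members gather around 0 on both axes, Coq10b lies at 1.16 on both, and mt-Co3 lies at -0.82 in Y428F cells.

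Some genes around the complexes passed the test with PTH, and the shares called in their lists lay both above and below that of all genes. Against 11.8% of all genes in WT cells, edgeR called 3 of 9 regulators and 2 of 15 electron carriers. Of assembly factors it called 5 of 24 for complex IV, 1 of 16 for complex I (the member Ndufaf4) and 1 of 6 for complex III. It called none of 4 complex II or 5 ATP synthase assembly factors, none of which had an unadjusted p under 0.05, and none of 6 ADP, ATP and phosphate carriers, where 1 had. Of 13 genes of mitochondrial mRNA stability and decay 2 were higher and 2 lower, and of 11 of mitochondrial DNA transcription and replication 1 was higher and 1 lower. Within these lists the genes with the smallest adjusted p in WT cells were Coq10b, Pprc1, Gabpb1, Fastkd5 and Ttc19, and in Y428F cells Coq10b, Pprc1, Hccs, Sco2 and Gabpb1, all of them higher. Coq10b, which encodes a protein that binds coenzyme Q, was at 11.8, 7.91 and 10.2 CPM with vehicle and 20.9, 21.7 and 24.2 CPM with PTH in WT cells. In Y428F cells it was at 12.4, 13.1 and 15.9 CPM with vehicle and 31.1, 31.2 and 30.4 CPM with PTH. All PTH libraries were above all vehicle libraries of either line, and the log2 fold change was 1.16 ± 0.13 in WT cells (adjusted p = 6.8e-05) and 1.16 ± 0.11 in Y428F cells (adjusted p = 8.57e-07).

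Pprc1, a coactivator of the PGC-1 family, was at 64.5, 64.4 and 73.9 CPM with vehicle and 119, 119 and 96.8 CPM with PTH in WT cells, a log2 fold change of 0.73 ± 0.09 (adjusted p = 0.000105). For the Y428F line it was 0.57 ± 0.08 (adjusted p = 3.48e-05). Gabpb1, the beta subunit of GABP, rose by a log2 fold change of 0.43 ± 0.08 (adjusted p = 0.00239) and 0.41 ± 0.08 (adjusted p = 0.00105). The other 4 were called in both lines as well. Fastkd5, which acts in the processing of mitochondrial RNA, had 0.63 ± 0.11 in WT (adjusted p = 0.00289) and 0.46 ± 0.10 in Y428F cells (adjusted p = 0.00373). For Ttc19, of complex III assembly, the log2 fold changes were 0.39 ± 0.07 (adjusted p = 0.00327) and 0.24 ± 0.07 (adjusted p = 0.0236), and the latter call was lost with library totals, with the GC correction and without the third vehicle or the first or the third PTH library of Y428F cells. Hccs, the enzyme that attaches heme to cytochromes c, had 0.37 ± 0.08 (adjusted p = 0.00759) and 0.44 ± 0.07 (adjusted p = 0.000254). Sco2, a copper chaperone of complex IV, had 0.54 ± 0.13 (adjusted p = 0.0169) and 0.60 ± 0.11 (adjusted p = 0.00103), and the call in WT cells was lost without the second vehicle or the first or second PTH library.

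All 3 regulators called in WT cells were higher, and 3 of 9 were higher and none lower in Y428F cells, where 12.4% of all genes were called. Of the 24 complex IV assembly factors, 3 were higher and 2 lower in WT cells (11.8% of all genes were called) and 3 and 1 in Y428F cells (12.4%). Among 78 mitochondrial ribosomal protein genes 0 were higher and 1 lower in WT cells, and 0 were called in Y428F cells, where 4 had an unadjusted p under 0.05. Of the 76 cytosolic ribosomal protein genes none was called or had an unadjusted p under 0.05 in either line.

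Between the lines, nuclear members differed in both directions. With vehicle, 28 of 91 were higher and 13 lower in the Y428F line, with a median log2 fold change of 0.10, and among all genes tested 45.1% were called, 22.4% higher and 22.7% lower. With PTH, 35 were higher and 10 lower, with a median of 0.17, against 45.7% of all genes, 22.8% higher and 23% lower. The median ranged over the alternatives between 0.04 and 0.16 for vehicle and between 0.08 and 0.24 for PTH, and without the third Y428F vehicle library 27 members (19 higher, 8 lower) were called with vehicle in place of 41. The shares of members called, 41 and 45 of 91, are near those of all genes. At the stricter limit 24 members were called in either comparison, against 31% and 31.6% of all genes. With a correction for the trend of each library with transcript length, the split was 35 higher and 15 lower with vehicle, against 36 and 20 with PTH. Scaling by library totals in place of TMM gave 37 higher and 9 lower with vehicle, against 45 and 8 with PTH. The shares of all genes above belong to the main fit. Those under this scaling and under the length correction are not given, so neither split can be judged against all genes.

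The vehicle and PTH comparisons use separate libraries. All 41 members called with vehicle had the same direction with PTH, as had 7853 of the 7986 genes called with vehicle among all tested. Of the members 35 were called in both, 25 higher and 10 lower, or 85.4% of the calls with vehicle and 77.8% of those with PTH. For all genes tested these shares were 83.0% and 81.9%. Among the 28 calls was Cox7b2, with no count in the 6 WT libraries and at most 3 in any Y428F library, for which no fold is given.

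Complex V had calls in 1 direction, with 7 of 18 genes higher with vehicle and 6 with PTH and none lower. These shares, 38.9% and 33.3%, were below the 45.1% and 45.7% of all genes called. The single direction held under all scalings, but 2 were lower with PTH under the length correction, and with the replicate number as a block added to it 3 were lower with PTH and 1 with vehicle. Leaving out the second WT, the first Y428F or the third Y428F vehicle library left 4 higher with vehicle each time. Without the third WT library with PTH, 10 of 18 were higher with PTH in place of 6, which is above the 45.7% of all genes in the main fit. Atp5f1b, the catalytic beta subunit (GRCm39 chr10:127919132-127926261), was at 772, 720 and 739 CPM in WT vehicle libraries against 1163, 1154 and 1151 CPM in their Y428F counterparts. With PTH the WT libraries had 754, 761 and 779 CPM and the Y428F libraries 1300.4, 1231 and 1225 CPM. All Y428F libraries were above all WT libraries, and the log2 fold changes were 0.64 ± 0.05 (adjusted p = 2.29e-09) and 0.71 ± 0.05 (adjusted p = 4.38e-10). Atp5f1d, a subunit of the central stalk, was at 138, 133 and 140 CPM in WT vehicle libraries against 185, 174 and 180 CPM in their Y428F counterparts (0.39 ± 0.05, adjusted p = 2.65e-06), and at 0.46 ± 0.05 with PTH (adjusted p = 2.71e-07). Atp5mc2, of the c ring, had 192, 166 and 178 CPM in WT vehicle libraries against 238, 226 and 232 CPM in their Y428F counterparts, with a log2 fold change of 0.38 ± 0.07 (adjusted p = 8.46e-05), and 0.48 ± 0.07 with PTH (adjusted p = 4.6e-06). The other c genes Atp5mc1 (0.38 and 0.40) and Atp5mc3 (0.20 and 0.29) were called in both comparisons as well, although Atp5mc3 with vehicle was not called in every alternative.

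In complex I, 8 of 37 subunits were higher and 7 lower with vehicle, and 14 and 7 with PTH, which is 40.5% and 56.8% called against 45.1% and 45.7% of all genes. Ndufa12, an accessory subunit (chr10:94034582-94057450), was at 38.6, 30.2 and 32.7 CPM in WT vehicle libraries against 50.2, 51.3 and 52.0 CPM in their Y428F counterparts, with no overlap. Its log2 fold change was 0.60 ± 0.09 with vehicle (adjusted p = 7.12e-06) and 0.60 ± 0.09 with PTH (adjusted p = 7.5e-06). In the NADH-oxidizing arm Ndufv1 was higher and Ndufv3 lower. Ndufv2, named after its values were seen, had 0.15 ± 0.08 with vehicle (adjusted p = 0.14) and was higher with PTH (0.24 ± 0.08, adjusted p = 0.0189). Ndufv1, which carries the NADH site, was at 63.3, 66.4 and 67.4 CPM in WT vehicle libraries against 79.8, 76.7 and 79.2 CPM in their Y428F counterparts (0.26 ± 0.06, adjusted p = 0.001), and at 0.39 ± 0.06 with PTH (adjusted p = 1.16e-05). Ndufv3, a small accessory subunit (chr17:31739052-31751735), was at 64.7, 61.1 and 60.9 CPM in WT vehicle libraries against 40.0, 46.5 and 42.5 CPM in their Y428F counterparts. Its log2 fold change was -0.53 ± 0.08 (adjusted p = 6.78e-06), and -0.42 ± 0.08 with PTH (adjusted p = 0.00011). Of the 8 assembly factors 4 were higher and 2 lower with vehicle, and 4 and 1 with PTH, or 75% and 62.5% of a small list against the same background. Ndufaf4 was among those higher with vehicle (0.50 ± 0.11, adjusted p = 0.000951) and with PTH (0.28 ± 0.11, adjusted p = 0.0439), and the latter call was lost in 7 of 23 alternatives.

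Complex II had 1 higher and 1 lower of 4 genes with vehicle and 1 higher with PTH, where 45.1% and 45.7% of all genes were called. Sdhd, a membrane anchor subunit, was the lower one, at 89.7, 80.2 and 86.5 CPM in WT vehicle libraries against 76.5, 72.1 and 73.0 CPM in their Y428F counterparts, without overlap (log2 fold change -0.21 ± 0.07, adjusted p = 0.0243). The call was lost with library totals and without the first or the third WT or the second or the third Y428F vehicle library, with adjusted p up to 0.111, and with PTH Sdhd was not called (-0.09 ± 0.07, adjusted p = 0.334). Sdhb, the iron-sulfur subunit, was at 74.8 ± 3.3 and 73.8 ± 4.4 CPM with vehicle (SD, n = 3, adjusted p = 0.864). The higher one was Sdha, the flavoprotein, named after its values were seen (0.20 ± 0.07, adjusted p = 0.0168). In complex III 3 of 8 were higher and 1 lower with vehicle, and 4 higher with PTH, which is 50% called in each, near the share of all genes. Uqcrc2, a core protein (chr7:120233976-120260035), was at 85.5, 78.5 and 69.9 CPM in WT vehicle libraries against 110, 99.7 and 105 CPM in their Y428F counterparts. All Y428F libraries were above the WT libraries (0.43 ± 0.07, adjusted p = 3.57e-05), and with PTH the log2 fold change was 0.50 ± 0.07 (adjusted p = 5.08e-06).

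In complex IV 5 of 16 genes were higher, Cox7b2 included, and 2 lower with vehicle, and 6 and 2 with PTH, which is 43.8% and 50% called, near the 45.1% and 45.7% of all genes. Cox7a2l, which links complexes III and IV into supercomplexes (chr17:83765970-83824759), was at 257, 239 and 253 CPM in WT vehicle libraries against 177, 181 and 188 CPM in their Y428F counterparts. The groups were well apart, with a log2 fold change of -0.45 ± 0.07 (adjusted p = 1.4e-05), and of -0.32 ± 0.07 with PTH (adjusted p = 0.000649). Its share of the COX7A level per kilobase was 71.3% for WT and 64.8% for Y428F vehicle libraries, and Cox7a2 did not pass the test (-0.02 ± 0.10, adjusted p = 0.888). Cox6a2 was at 5.03 ± 1.2 CPM in WT vehicle libraries and 2.73 ± 0.19 CPM in their Y428F counterparts (-0.88 ± 0.20, adjusted p = 0.000824). Cox4i1, with the highest level of the nuclear members, had -0.20 ± 0.09 with vehicle (adjusted p = 0.0784).

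**Figure D2:**
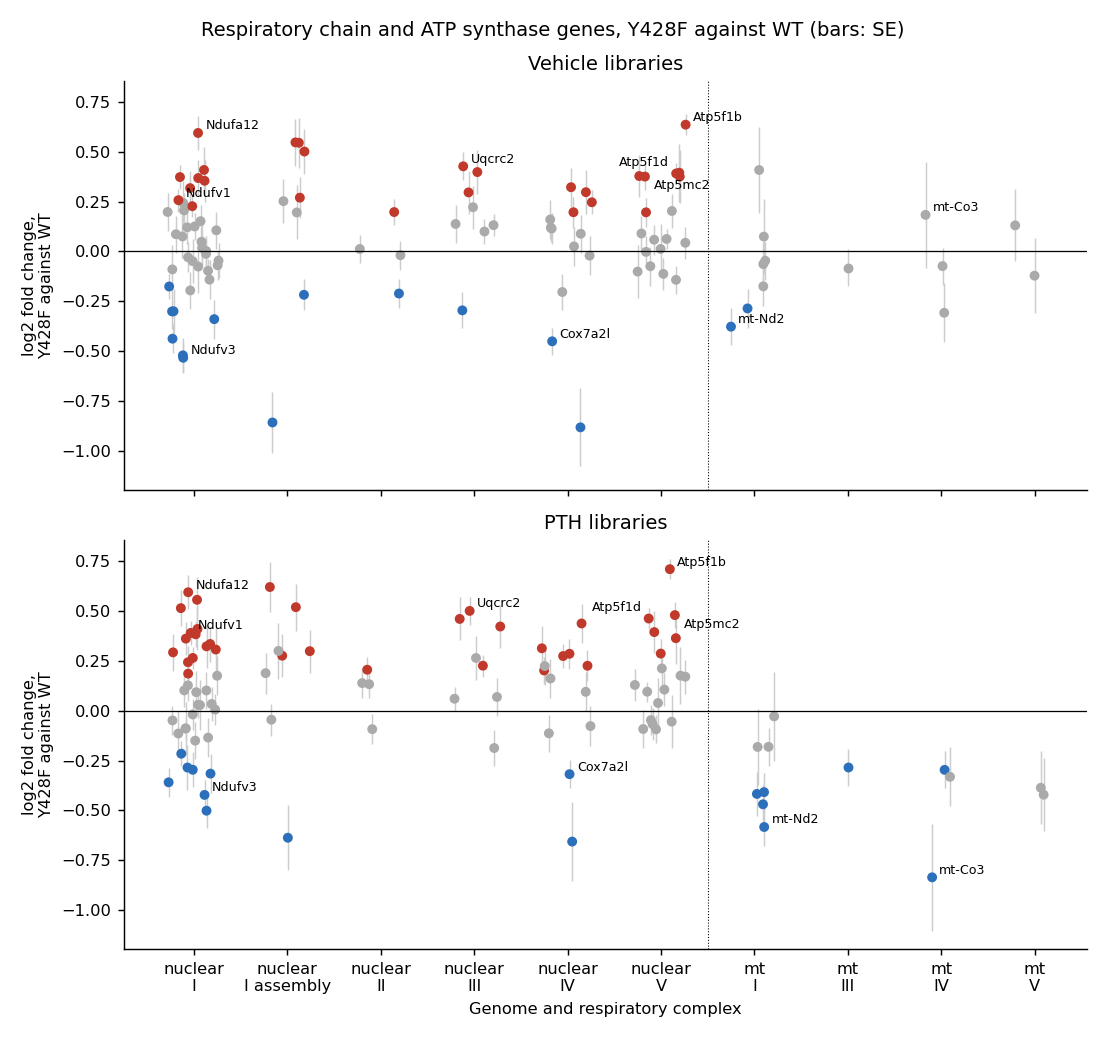
Log2 fold change of Y428F against WT cells (y axis, bars are SE) for 88 nuclear and 13 mitochondrial members, by genome and complex (x axis), with vehicle (top) and with PTH (bottom). Red and blue points are called higher and lower at an adjusted p under 0.05 and grey points are not called; nuclear complex V has red points and no blue ones, and the mitochondrial members have blue points and no red ones.

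Lists of related genes also differed between the lines, and the complex I assembly list includes members, Ndufaf3 and Ndufaf4 among them. With vehicle, 8 of 15 electron carriers were higher and 3 lower, and 7 and 3 of 16 complex I assembly factors. Of 6 ADP, ATP and phosphate carriers 4 were higher and 0 lower, where 45.1% of all genes were called. With PTH these were, in the same order, 10 and 2, 7 and 3, and 3 and 0, against 45.7% of all genes. Slc25a5, an ADP/ATP carrier, was at 189, 145 and 168 CPM in WT vehicle libraries against 282, 295 and 293 CPM in their Y428F counterparts, with a log2 fold change of 0.79 ± 0.08 (adjusted p = 2.73e-08), and 0.78 ± 0.08 with PTH (adjusted p = 3.09e-08). Slc25a3, the phosphate carrier, had 0.57 ± 0.05 with PTH (adjusted p = 2.07e-08), and Vdac1, the outer membrane channel, 0.54 ± 0.06 with vehicle (adjusted p = 7.68e-08). The gene of cytochrome c, Cycs, had 0.74 ± 0.07 with vehicle (adjusted p = 5.09e-08), and that of cytochrome c1, Cyc1, a complex III subunit with another name pattern, 0.64 ± 0.07 with PTH (adjusted p = 7.84e-08). Aifm1, which aids the assembly of complex I, had 0.63 ± 0.06 with vehicle (adjusted p = 1.53e-08).

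Ppargc1a, the PGC-1alpha coactivator, went the other way, at 8.25, 9.50 and 9.50 CPM in WT vehicle libraries against 2.30, 3.49 and 2.62 CPM in their Y428F counterparts. The log2 fold change was -1.69 ± 0.15 (adjusted p = 1.21e-08), and -1.30 ± 0.15 with PTH (adjusted p = 3.77e-07). Nrf1 (0.50 ± 0.07, adjusted p = 3.24e-06) and Tfam (0.34 ± 0.07, adjusted p = 0.000562), which encodes the mitochondrial DNA packaging and transcription factor, were higher with vehicle and were named after their values were seen. Of 9 regulators 4 were higher and 4 lower with vehicle, and 2 and 4 with PTH, against 45.1% and 45.7% of all genes called in either direction. Of 11 genes of mitochondrial DNA transcription and replication, 4 were higher and 1 lower in each comparison, which is 45.5% called. Mitochondrial ribosomal protein genes had 38 higher and 4 lower of 78 with vehicle and 49 and 2 with PTH, which is 53.8% and 65.4% called. The tricarboxylic acid cycle had 10 and 1 of 16 with vehicle, and glycolysis 13 and 2 of 17, with a median log2 fold change of 0.71 for the latter. These are 68.8% and 88.2% called, against 45.1% of all genes. The cytosolic ribosomal protein genes had 23 higher and 5 lower of 76 with vehicle, and 32 and 2 with PTH, which is 36.8% and 44.7% called against 45.1% and 45.7% of all genes.

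The mitochondrially encoded mRNAs called between the lines were lower in Y428F cells. Under other settings some were higher, with vehicle 1 without the third Y428F vehicle library and 2 with no filter on low counts, and mt-Nd3 in both comparisons when the reads of its copy were added. With PTH, 7 of 13 (53.8%) were lower in the Y428F line, against 45.7% of all genes called and 23% called lower, all 13 log2 fold changes were negative and their median was -0.39. For 8 of the 13 all Y428F libraries were below all WT libraries, which held for 26.3% of all genes tested. With 1 library left out, the count called with PTH ranged from 4 to 10. It was larger still with no filter, with the length correction and with this and the replicate block. With vehicle 2 were lower (15.4%, against 45.1% of all genes called and 22.7% called lower) and the count called was 1 without the first WT vehicle library, 4 without the second Y428F vehicle library and 6 with no filter on low counts (2 higher, 4 lower). The median with vehicle was -0.073, which became 0.007 without the first Y428F vehicle library. The 2 called in both were mt-Nd2 and mt-Nd4, proton-pumping subunits of complex I. Transcript mt-Nd2 was at 581, 489 and 460 CPM in WT vehicle libraries against 337, 462 and 379 CPM in their Y428F counterparts, where the groups overlapped (-0.38 ± 0.09, adjusted p = 0.00211). With PTH it was at 525, 535 and 583 CPM in WT and 361, 380 and 354 CPM in Y428F cells, with no overlap (-0.58 ± 0.09, adjusted p = 2.47e-05). For mt-Nd4 the values were -0.29 ± 0.10 (adjusted p = 0.0204) and -0.47 ± 0.10 (adjusted p = 0.000432), and the call with vehicle was lost with library totals, with DESeq2 and without the first WT, the first Y428F or the third Y428F vehicle library, with adjusted p up to 0.15.

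The other 5 lower with PTH were mt-Nd5 (-0.41 ± 0.10), mt-Nd6 (-0.42 ± 0.11), mt-Cytb (-0.28 ± 0.09), mt-Co1 (-0.30 ± 0.09) and mt-Co3 (-0.84 ± 0.27). Without the third WT library with PTH 4 mitochondrial members were called, since mt-Co1, mt-Cytb and mt-Co3 were lost, with adjusted p of 0.0659, 0.0949 and 0.0927. The calls of mt-Co1 and mt-Cytb were also lost with library totals, and that of mt-Co3 with DESeq2 and without the first or the second Y428F library with PTH, whereas without the third of them its log2 fold change was -1.35. The gene of mt-Nd6 lies on the other strand than the rest, and the sources do not say whether the counting used strand. The remaining members, mt-Nd1 (-0.18), mt-Nd3 (-0.18), mt-Nd4l (-0.03), mt-Co2 (-0.33), mt-Atp6 (-0.42) and mt-Atp8 (-0.39), did not pass the test.

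Counts of mitochondrial genes that have a copy were divided between both places. Atp6-ps took 92.1% of the counts of mt-Atp6 and its copy, between 86.6% and 95.2% by library. Gm28438 took 71.7% for mt-Nd3, Gm28437 70.8% for mt-Co3, with a range from 59.5% to 86.9%, and Gm28661 68.4% for mt-Co2. For mt-Nd4l the share of Gm10222 ran from 0% to 56.2%. Whether these reads came from mitochondrial or nuclear RNA was not tested. In contrast mt-Co1, whose copies differ at 6 or more bases, had at most 1.23% of its counts at the chromosome 1 copy Gm29216. Gm28439, identical to mt-Nd4 over 876 bases, had no count.

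With the reads of the annotated copies added, an alternative chosen after the data were seen, the spread of these genes narrowed and the calls moved. In Y428F cells PTH gave mt-Co3 a log2 fold change of -0.35 ± 0.09 (adjusted p = 0.0108) in place of -0.82 ± 0.27, and mt-Atp6 one of -0.36 ± 0.09 (adjusted p = 0.014) in place of 0.26 ± 0.19. Between the lines with PTH, 8 were lower and 1 higher. Among the former were mt-Co3 (-0.43 ± 0.09, adjusted p = 0.000318) and mt-Atp6 (-0.43 ± 0.09, adjusted p = 0.000712), and the latter was mt-Nd3 (0.27 ± 0.09, adjusted p = 0.0181, against -0.18 without the copy). With vehicle mt-Nd3 was higher as well (0.29, adjusted p = 0.0121), and mt-Nd2 and mt-Nd4 were lower. No difference in response was called (adjusted p = 0.182 for mt-Co3 and 0.2 for mt-Atp6). The 13 genes and their copies summed to 11364 ± 1061 and 12032 ± 836 CPM (SD, n = 3) in WT cells with vehicle and PTH, and to 10872 ± 1379 and 9570 ± 434 CPM in Y428F cells. Of the 91 nuclear members tested 27 have an annotated copy, and in 3 of them the copy took over 5% of the counts, Ndufb4 (26.0%), Ndufa12 (7.43%) and Atp5po (5.08%), so the values of these 3 are uncertain to that extent.

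**Figure D3:**
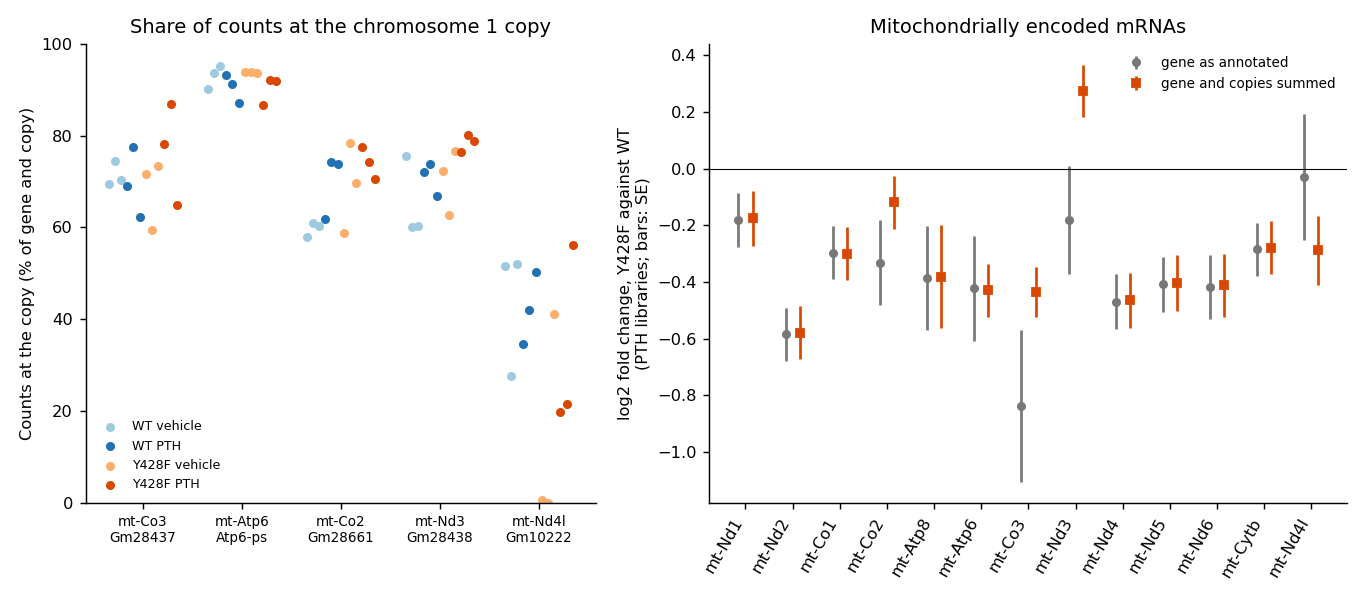
Left, share of the counts of a mitochondrial gene and its chromosome 1 copy that were counted at the copy (percent, y axis), 1 point per library, by group. Right, log2 fold change of Y428F against WT cells with PTH (y axis, bars are SE) for the 13 mitochondrial genes as annotated (grey) and summed with their copies (orange). The shares reach 95.2% for mt-Atp6 and vary from 0% to 56.2% for mt-Nd4l, and mt-Co3 moves from -0.84 to -0.43 with the copies.

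The median level of the nuclear members varied from library to library. The median deviation of the 88 members from their means, on log2(CPM + 1), was 0.084, -0.20 and -0.058 in WT cells with vehicle and -0.081, -0.15 and 0.11 with PTH. In Y428F cells it was 0.012, 0.060 and 0.030 with vehicle and 0.20, -0.021 and 0.11 with PTH. The groups overlapped, and the first Y428F library with PTH was the highest. Transcripts of members are short, with a median of 1167 bases against 3427 bases for all 11218 genes that reached a mean of 2 CPM. So the deviation was set beside a length measure of each library, the median deviation of the 2051 shortest other genes (up to 1973 bases) minus that of the 2049 longest (from 5712 bases), members left out.

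Over the 12 libraries the measures had Pearson's r = 0.91 and Spearman's rho = 0.83 (permutation p = 6.0e-05 and 0.00138, Benjamini-Hochberg adjusted over 4 relations 0.00024 and 0.00552). Without the 2 libraries farthest from the median length measure, r was 0.85. Within WT libraries r was 0.89 (n = 6, exact permutation p = 0.0528) and within Y428F libraries 0.90 (n = 6, exact permutation p = 0.0306), with adjusted p of 0.0704 and 0.0611 and rho of 0.83 and 0.71. Permutation took no account of the groups, so these p-values only describe the libraries. Members are short themselves, and no other set of short genes was compared in this way. The length measure averaged -0.040 and -0.085 in WT cells with vehicle and PTH and 0.057 and 0.075 in Y428F cells. The counts with the length correction are given above. For the summed mitochondrial members and copies r was -0.22 (permutation p = 0.486) and rho was -0.31 (permutation p = 0.33).

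**Figure D4:**
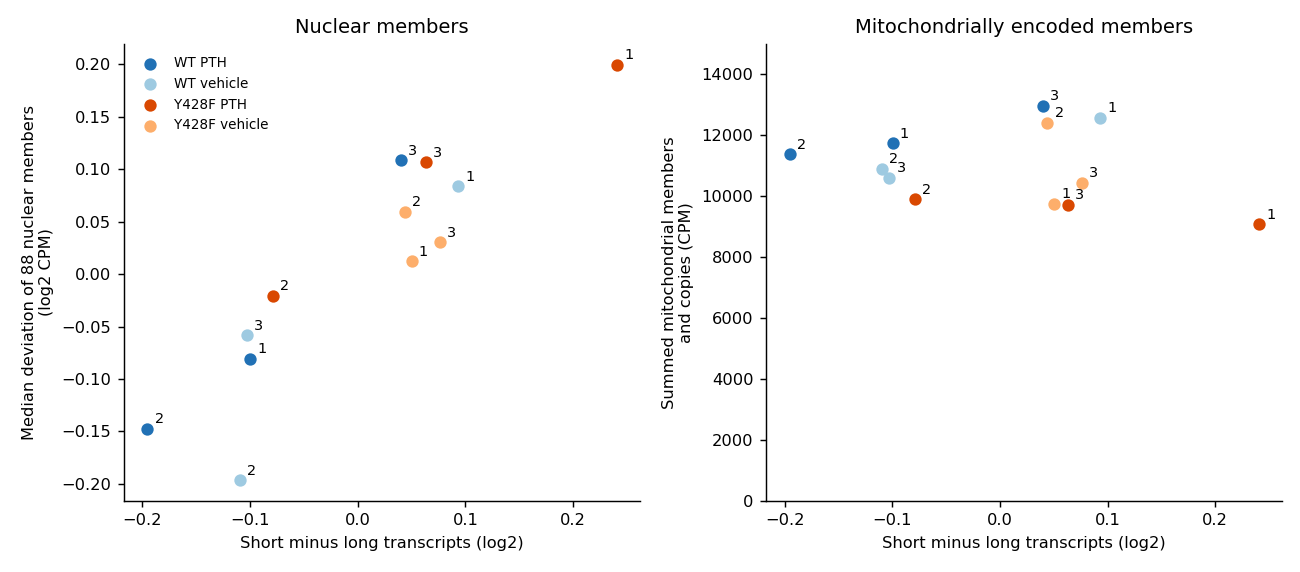
Each library's short minus long measure (x axis, log2) against the median deviation of 88 nuclear members (left, log2) and against the summed mitochondrial members and copies (right, CPM), coloured by group and labelled by replicate number. The nuclear points rise along the x axis, up to 0.20 in the first Y428F library with PTH, and the mitochondrial points do not.

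The line difference of the nuclear members was also set beside the chromosome they lie on. For each chromosome the median log2 fold change of the 10318 other genes that reached a mean of 4 CPM was set beside the members. On chromosome 10, where this median was 0.25 with vehicle, all 5 members were positive and 3 were called higher, namely Atp5f1b, Atp5f1d and Ndufa12, 3 of the 6 members with the smallest adjusted p. On chromosome 11 (median 0.17) all 5 members were positive and 3 were called higher, and on chromosome 19 (0.11) likewise 5 and 3. On chromosome 17 (-0.073) 5 of 7 were negative and none was called higher, and this chromosome holds Ndufv3 and Cox7a2l. On chromosome 9 the median was -0.24, and 1 of 6 members was called higher and 2 lower. Other chromosomes went the opposite way. On chromosome 6 (median -0.17) all 4 members were positive, on chromosome 4 (-0.064) 5 of 7 were positive, and on chromosome X (0.11) 1 of 3 was. Of the other genes, 72.9% were positive on chromosome 10, 67.3% on 11, 60.9% on 19, 43.4% on 17 and 23.0% on 9. For chromosomes 6, 4 and X these shares were 35.6%, 42.8% and 60.9%.

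Across the 88 members on 19 chromosomes, Pearson's correlation of the member with its chromosome's median was 0.49 with vehicle and 0.55 with PTH, and Spearman's was 0.54 and 0.58. This is a description, since members of 1 chromosome share its median. The SD of the members' log2 fold changes was 0.289 with vehicle and 0.252 after the chromosome's median was subtracted, and 0.277 and 0.232 with PTH. The median of the members was 0.095 before and 0.10 after subtraction with vehicle and 0.15 and 0.16 with PTH. Copy number of the chromosomes was not measured here.

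**Figure D5:**
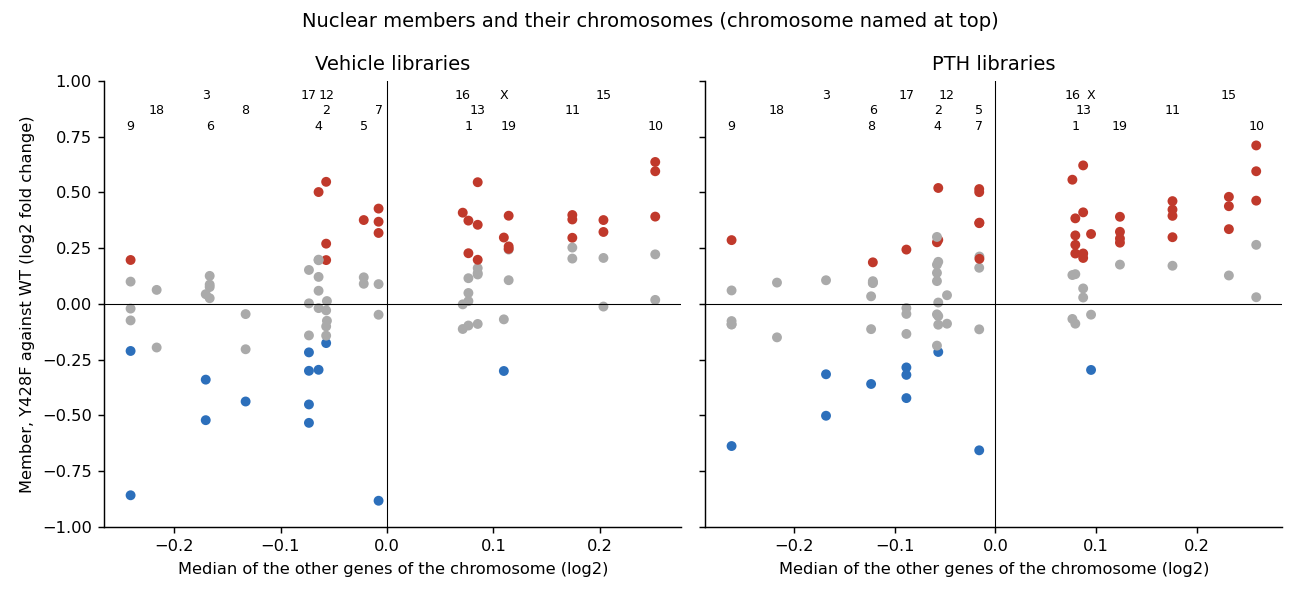
Log2 fold change of Y428F against WT cells for each of 88 nuclear members (y axis) against the median of the other genes on its chromosome (x axis, log2), with vehicle (left) and with PTH (right). Chromosomes are named along the top, and red and blue points are called higher and lower; the 5 members of chromosome 10, at the right edge, are all above 0.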

How the data were processed

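Poly(A) RNA of 12 libraries was sequenced. Per the labels and the study's methods, the authors mapped reads with STAR 2.7.10b to GRCm39 with a GENCODE basic annotation and deposited RSEM expected counts per gene, not scaled for depth or length. Expected counts were rounded and tested with edgeR 4.0.16 in R 4.3.3 (TMM, genes whose counts summed to 10 or more). PTH in WT cells was fitted on the 6 WT libraries (15583 genes) and the other comparisons on all 12 (17691 genes). Calls are at an adjusted p under 0.05 in the quasi-likelihood test, Benjamini-Hochberg adjusted over all genes tested. The fits were tried on simulated data. Symbols, positions and lengths came from GENCODE vM39 on GRCm39, in which 56236 gene identifiers were matched and 744 were not. Annotated copies were found with BLAST 2.17.0 (at least 95% identity over at least 150 bases and 50% of the shorter transcript).

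Named genes were all mitochondrial members, up to 6 nuclear members per comparison with the smallest adjusted p and at least 2 CPM, the isoform families, up to 5 genes of the regulator, carrier and assembly lists per comparison, and the highest and lowest member per complex. Members, lists and tests were chosen with earlier results of these data known. Alternatives were other scalings, DESeq2 1.42.0, other filters and limits, corrections for GC content and length, the replicate number as a block, other sets of libraries and each library left out. Counting precision rests on 17127897 to 19057319 counts per library.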

Additional observations from a re-analysis of the deposited data

How the results depend on the processing

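With PTH in WT cells, nuclear calls were 2 with no filter and 0 at an adjusted p under 0.01 with a log2 fold change beyond 0.3 (the strict limit), and mitochondrial calls were 3 with no filter, 2 with the length correction, 1 with the replicate block and 2 with both. With PTH in Y428F cells, nuclear calls were 1 with DESeq2, with the length correction, with this and the replicate block, and in the fit of the 6 Y428F libraries. Mitochondrial calls there were 0 with scaling without the mitochondrial genes, with DESeq2 and at the strict limit, 2 in the fit of 6 libraries, 2 with copies added and 6 with no filter. Between the lines with vehicle, the strict limit left 24 nuclear and 1 mitochondrial calls, library totals and DESeq2 gave 1 mitochondrial call each, and no filter gave 6. With PTH the strict limit left 24 nuclear and 4 mitochondrial calls, and no filter, the length correction and this with the replicate block gave 11 mitochondrial calls each. For the difference in response, no filter gave 3 mitochondrial calls. With each library left out, nuclear and mitochondrial calls ranged from 0 to 1 and 0 to 3 (PTH in WT), 0 and 0 to 1 (PTH in Y428F), 27 to 46 and 1 to 4 (lines, vehicle) and 35 to 50 and 4 to 10 (lines, PTH), and were 0 for the difference in response. Without the third Y428F library with vehicle there were 27 nuclear calls with vehicle in place of 41. Mitochondrial calls with vehicle were 1 without the first WT library and 4 without the second Y428F library with vehicle. With PTH in WT cells they were 3 without the first vehicle library, and 1 each without the third vehicle or the first PTH library. The cause of these changes was not tested. Of 88 results for named genes that passed the test, 66 kept their direction and call in all alternatives, 22 lost the call in at least 1, and 0 changed direction. Of named members that had not passed it, 2 were called in the opposite direction in an alternative, both with copies added: mt-Atp6 with PTH in Y428F cells (from 0.26 to -0.36) and mt-Nd3 between the lines with PTH (from -0.18 to 0.27). Replicate numbers did not pair the libraries (18 same-numbered pairs, mean correlation of deviations 0.035, from -0.22 to 0.39), and with the replicate block there were 46 and 48 nuclear and 3 and 9 mitochondrial calls between the lines with vehicle and PTH. Low counts limit the isoforms Cox7a1, Cox7b2, Cox8b and Ndufa4l2.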

Other observations

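The mitochondrial rRNAs, which are not members and have short or no poly(A) tails, had one library apart from the rest. In the second WT library with vehicle mt-Rnr1 had 389 counts and mt-Rnr2 622, against 2815 and 2990 in replicate 1 and 2357 and 2684 in replicate 3. The WT libraries with PTH had 2379 to 2635 counts of mt-Rnr1 and 2702 to 3076 of mt-Rnr2, and no test of PTH is reported for these rRNAs. Y428F libraries had 1954 to 2770 counts of mt-Rnr1 and 1442 to 2333 of mt-Rnr2. In that second WT library mt-Co1 was at 3042 CPM, between the 3769 and 2838 CPM of the other WT vehicle libraries, and the median deviation of the nuclear members was the lowest of the 12, at -0.20.

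Among libraries with PTH, mt-Rnr2 averaged 173 ± 6.47 CPM for WT and 82.4 ± 2.07 CPM for the Y428F line (SD, n = 3), and mt-Rnr1 152 ± 4.74 and 123 ± 6.85 CPM, with no overlap between the lines. With vehicle, where the low WT library is included and the lines overlapped, mt-Rnr2 was at 113 ± 67.2 and 99.7 ± 16.6 CPM and mt-Rnr1 at 99.2 ± 67.7 and 121 ± 17.0 CPM. The differences between the lines were noticed in the data, and no test result is reported for them.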
